A study of Mus musculus with 4 samples.

Results

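The guanylate-binding protein (Gbp) genes were examined in the livers of mice with diet-induced steatohepatitis. The members were the 10 genes Gbp2 to Gbp11, taken by their symbols, of 24346 genes listed in each library. They were selected because their levels in these same libraries were higher in 1 group, so the comparison between the groups is given for them as a description and without a test. Gbp2b, formerly called Gbp1, is the remaining family gene listed and was not a member. It is given beside them. RNA sequencing was performed on liver of wild type male C57BL/6 mice. All mice were fed the NASH diet, rich in fat, cholesterol, sucrose and bile salt, for 3 weeks. In the 7KC group the diet also contained 7-ketocholesterol (7KC), an oxidized cholesterol derivative, and in the control group it did not. Each group had 2 libraries, and the labels do not say whether a library was 1 animal or a pool. The spread between libraries may therefore be technical or biological, and n = 2 refers to libraries throughout.

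Guanylate-binding proteins are large GTPases of the dynamin superfamily that interferons, above all interferon-γ, switch on in macrophages and many other cells. They assemble on pathogen-containing vacuoles and on cytosolic bacteria, help to break them open, and feed bacterial products to the inflammasomes. In the liver they are found at a basal level and become abundant when T and NK cells release interferon-γ. In bulk tissue, a higher level in each cell cannot be told apart from a larger number of cells that express the gene.

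The mouse genes lie in a pair of clusters. In the GRCm38 (mm10) annotation of GENCODE release M21, Gbp5 (chr3:142493978-142522344), Gbp7 (chr3:142530342-142550149), Gbp3 (chr3:142560026-142573209) and Gbp2 (chr3:142620602-142638008) are on the plus strand of chromosome 3, with Gbp2b (chr3:142594847-142619179) between the last pair. Gbp8 (chr5:105014150-105139540), Gbp9 (chr5:105077630-105139539), Gbp4 (chr5:105115767-105139586), Gbp10 (chr5:105215699-105239533), Gbp6 (chr5:105270702-105293698) and Gbp11 (chr5:105323042-105346472) are on the minus strand of chromosome 5. The annotated spans of Gbp8, Gbp9 and Gbp4 overlap. Gbp11 is annotated as a polymorphic pseudogene and the others as protein-coding.

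The stretches before the RefSeq starts of the chromosome 3 genes are shown because they hold matches to a sequence through which interferons are known to act. RefSeq promoters on GRCm38.p6 were at hand for 4 members, all on chromosome 3, and for Gbp2b. They were searched on both strands for the interferon-stimulated response element (ISRE, read as GAAA, any 2 bases and GAAA) and the gamma-activated site (GAS, read as TTC, any 3 bases and GAA). The part from 180 to 26 bases before the start is printed on the plus strand, with ISRE matches in capitals, which read as the reverse complement. Distances count from the RefSeq start, which can differ from the GENCODE start given above. The Gbp5 stretch lies inside the GENCODE span of Gbp5. The end of the Gbp2 stretch, with its match, lies inside that of Gbp2.
Gbp2 (chr3:142620483-142620637): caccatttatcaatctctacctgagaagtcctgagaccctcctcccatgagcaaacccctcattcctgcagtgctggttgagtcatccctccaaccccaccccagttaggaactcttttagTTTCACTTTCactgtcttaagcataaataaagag
Gbp3 (chr3:142559864-142560018): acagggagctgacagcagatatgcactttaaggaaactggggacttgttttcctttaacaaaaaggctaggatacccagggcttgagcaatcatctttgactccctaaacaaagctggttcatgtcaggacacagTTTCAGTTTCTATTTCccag
Gbp5 (chr3:142496754-142496908): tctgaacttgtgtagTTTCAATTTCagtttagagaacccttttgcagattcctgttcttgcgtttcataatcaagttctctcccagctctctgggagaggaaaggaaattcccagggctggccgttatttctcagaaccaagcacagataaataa
Gbp7 (chr3:142530156-142530310): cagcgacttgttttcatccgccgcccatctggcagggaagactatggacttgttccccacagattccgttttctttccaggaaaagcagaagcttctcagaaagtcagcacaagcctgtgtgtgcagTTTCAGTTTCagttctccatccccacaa
Gbp2b (chr3:142594667-142594821): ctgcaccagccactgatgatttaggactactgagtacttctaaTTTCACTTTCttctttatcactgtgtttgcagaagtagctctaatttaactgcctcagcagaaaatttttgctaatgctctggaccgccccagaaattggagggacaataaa
All 4 members had an ISRE match, as did Gbp2b, whereas 3.99% of the 27025 genes with a promoter in the same table had one. The match began 59 bases before the start in Gbp2, 53 in Gbp7 and 165 in Gbp5. In Gbp3 the matches at 45 and 39 bases overlapped, and a second annotated start of Gbp3 had no match. A GAS match was found in 2 of the 4 members, Gbp5 and Gbp7, with 2 matches each, against 9.55% of all genes. A match is a description of the letters and does not show that a factor bound there.

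Shared sequence decides how far each member can be read on its own. The coding sequences of the chromosome 5 genes were 89.6% to 98.4% identical over their 15 pairs. Those of the chromosome 3 members were 61.6% to 78.3% identical over 6 pairs. The closest pair was Gbp6 and Gbp10, with 98.4% identity over 1833 aligned bases. The following coding stretch, as long as a sequencing read, was present without a difference in 4 genes and shows the case in which a read has no single origin.
Gbp6 (chr5:105276627-105276701, minus strand): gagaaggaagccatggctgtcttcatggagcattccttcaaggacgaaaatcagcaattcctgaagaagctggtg
The same bases occurred in Gbp8 (chr5:105018562-105018636), Gbp10 (chr5:105220826-105220900) and Gbp11 (chr5:105327335-105327409). When the annotated transcripts were cut into all windows of 75 bases, the read length of the study, 57.2% of the windows of Gbp6 and 63.9% of those of Gbp10 were found unchanged in another Gbp gene. The share was 10.3% for Gbp11, 7.97% for Gbp8, 4.90% for Gbp4 and 4.32% for Gbp9. On chromosome 3 it was 2.09% for Gbp3, 1.25% for Gbp7, 0.983% for Gbp2 and 0% for Gbp5. Allowing 2 mismatches raised it to 88.7% for Gbp6, 88.6% for Gbp10, 38.1% for Gbp11, 35.8% for Gbp8, 19.4% for Gbp4 and 14.2% for Gbp9, and left it at no more than 5.18% on chromosome 3. Annotated genes outside the family add to this. Gm43302, which overlaps Gbp6 and Gbp10, held 86.0% of the windows of Gbp6 and 73.8% of those of Gbp10 unchanged, and Gm43802 held 10.03% of those of Gbp7. With every annotated gene counted, the share of unchanged windows was 86.0% for Gbp6, 75.5% for Gbp10 and 11.3% for Gbp7. The levels of Gm43302 and Gm43802 were not analysed here. Gbp5 was therefore the member whose reads could be assigned best, and Gbp6 and Gbp10 were the pair whose single values were least certain.

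**Figure D1:**
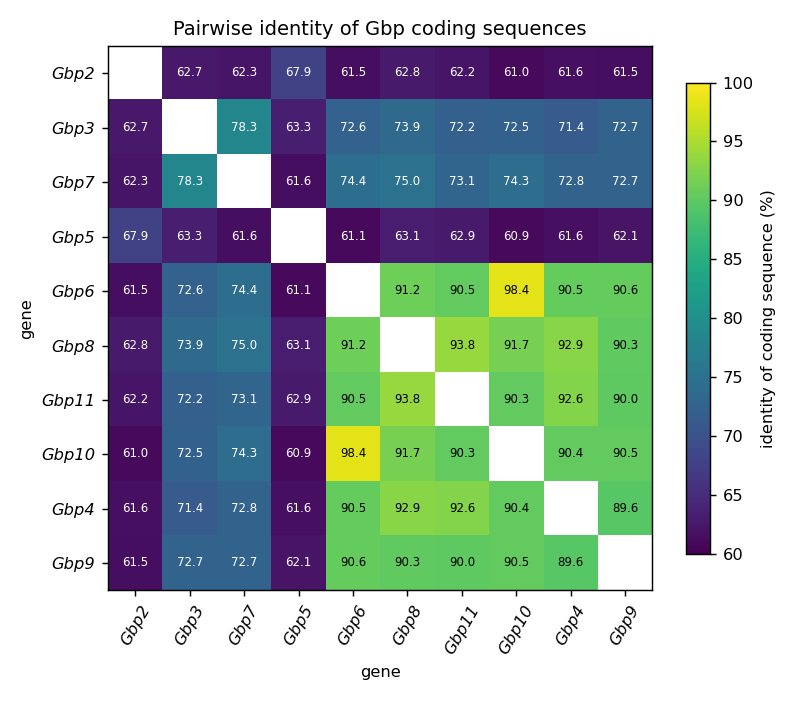
Identity of the coding sequence, in percent of aligned bases, for each pair of the 10 members, with the chromosome 3 genes first. The 6 chromosome 5 genes form a block between 89.6% and 98.4%, while no pair that involves a chromosome 3 gene exceeds 78.3%.

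**Figure D2:**
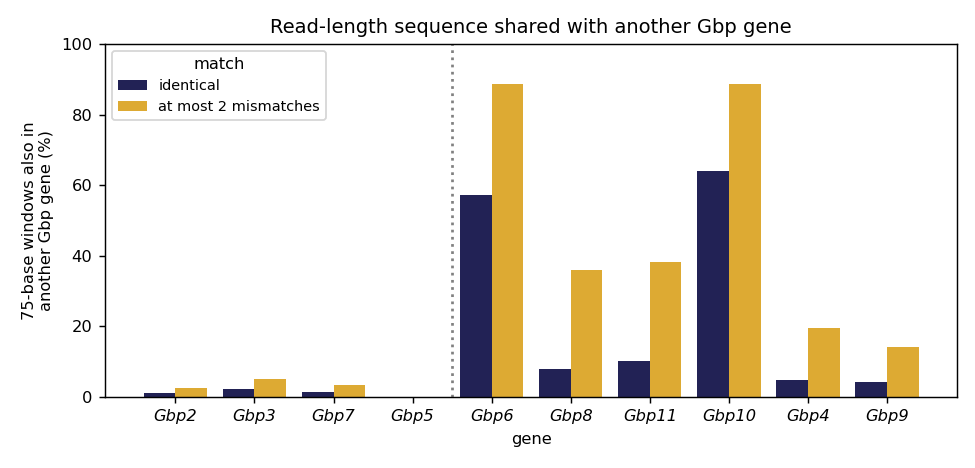
Percentage of the 75-base windows of each gene's transcripts that also occurred in another Gbp gene, either unchanged or with at most 2 mismatches. The dotted line separates chromosome 3 (left) from chromosome 5 (right), and Gbp6 and Gbp10 stand apart at 57.2% and 63.9% for unchanged windows.

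Levels are given as FPKM, fragment counts scaled for transcript length and for sequencing depth, so that genes of different length can be compared. The steps of low values put the depth at 17140000 reads for control replicate 1, 13780000 for control replicate 2, 13620000 for 7KC replicate 1 and 13700000 for 7KC replicate 2. At these depths the lowest value of any member, Gbp11 in control replicate 1, corresponded to about 104 reads, and the highest, Gbp2 in 7KC replicate 1, to about 3428 reads. The labelled tissue was borne out by hepatocyte transcripts: the albumin gene Alb lay between 18988 and 41547 FPKM.

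All 10 members were more abundant with 7KC than without it. The summed level of the 10 genes came to 59.8 and 62.2 FPKM without 7KC and 348 and 260 FPKM with it, a 4.98-fold difference between the means. The ratio of the group means ranged from 3.44 for Gbp7 to 6.95 for Gbp5. On the log2(FPKM + 0.5) scale, used for all log2 changes here, the median change of the members was 2.05 and the range was 1.70 to 2.62. The median over all 12299 genes tested was -0.03. In all 10 genes the lowest value with 7KC exceeded the highest value without it, a pattern that 25.1% of all tested genes showed, and all 10 were also at least 2-fold higher, as were 6.5% of tested genes, while 0.512% were as much lower. Because the genes were chosen on this contrast, nothing is read from these counts.

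**Figure D3:**
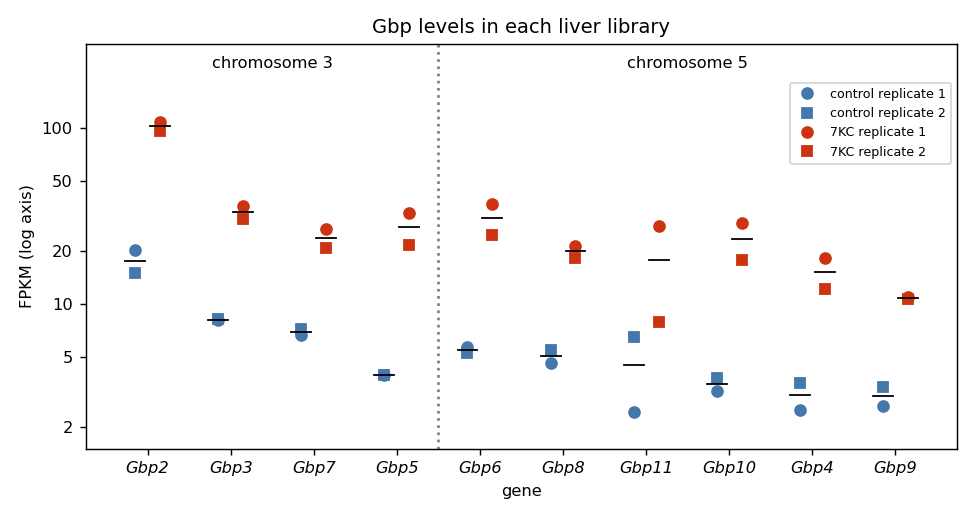
FPKM of the 10 members in each of the 4 libraries on a log axis, with the chromosome 3 genes left of the dotted line and black bars at the group means. For each gene the points with 7KC lie above those without it, the replicates of Gbp11 are far apart, and Gbp2 is the most abundant member in every library.

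Among the chromosome 3 genes, Gbp2 was the most abundant. Its protein carries a lipid anchor and is recruited to the vacuole of Toxoplasma. Gbp2 measured 20.1 and 14.97 FPKM without 7KC and 109 and 95.4 FPKM with it. The group means were 17.5 ± 3.63 and 102 ± 9.33 FPKM (SD, n = 2 each), with a ratio of 5.82 and a log2 change of 2.52. Gbp2 provided 31.2% and 36.7% of the summed Gbp level in the 7KC libraries and 33.6% and 24.1% in the control libraries, so its part in the sum overlapped between the groups.

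Gbp5, linked to activation of the NLRP3 inflammasome and also lipid-anchored, had the largest ratio of the 10. It measured 3.92 and 3.91 FPKM without 7KC and 32.9 and 21.6 FPKM with it. The control libraries were nearly equal, the 7KC libraries differed by 1.53-fold, and the lower of them was still 5.50 times the higher control library. This was the widest gap between the groups of any member, and as the members were chosen on this contrast, nothing is read from it.

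Gbp3 measured 8.11 and 8.18 FPKM without 7KC and 35.8 and 30.5 FPKM with it. It was the second most abundant member by the mean of either group and had close replicates, with a ratio of 4.07. Gbp7, which has been tied to the assembly of the phagocyte NADPH oxidase, measured 6.65 and 7.19 FPKM without 7KC and 26.8 and 20.8 FPKM with it. Its ratio of 3.44 was the smallest of the 10, yet the groups did not overlap. Together the 4 chromosome 3 members came to 38.8 and 34.3 FPKM without 7KC and 204 and 168 FPKM with it, a ratio of 5.10.

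Gbp2b, their neighbour that was not a member, measured 3.24 and 6.01 FPKM without 7KC and 18.2 and 16.8 FPKM with it. The difference was 1.86 ± 0.27 on the log2 scale (estimate and SE, limma adjusted p 0.0596). It did not pass the threshold, and its control libraries differed by 1.85-fold.

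On chromosome 5, the near-identical pair Gbp6 and Gbp10 had the highest mean levels with 7KC. Both have been implicated in the defence of macrophages against intracellular bacteria. Gbp6 measured 5.66 and 5.27 FPKM without 7KC and 36.8 and 24.8 FPKM with it. Gbp10 measured 3.21 and 3.77 FPKM without 7KC and 28.9 and 17.8 FPKM with it. Their sum takes out the division of reads between them, but not any loss of reads to Gm43302, which shares most windows of both. It came to 8.88 and 9.04 FPKM without 7KC and 65.7 and 42.6 FPKM with it, a ratio of 6.04, near the ratios of 5.63 and 6.68 of the single genes.

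Gbp4 measured 2.49 and 3.55 FPKM without 7KC and 18.1 and 12.2 FPKM with it, a ratio of 5.02. Gbp8 measured 4.62 and 5.47 FPKM without 7KC and 21.5 and 18.3 FPKM with it, a ratio of 3.94. Gbp9, the least abundant member by the mean of either group, measured 2.63 and 3.38 FPKM without 7KC and 10.9 and 10.7 FPKM with it, a ratio of 3.597. In these genes too the groups did not overlap, the lowest 7KC library being 3.15 to 3.44 times the highest control library.

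The pseudogene Gbp11 was the exception. It measured 2.44 and 6.51 FPKM without 7KC and 27.8 and 7.87 FPKM with it. The lower 7KC library exceeded the higher control library by only 1.21-fold, the replicates differed by 2.67-fold in the control group and 3.54-fold in the 7KC group, and the group means were 4.47 ± 2.88 and 17.9 ± 14.1 FPKM (SD, n = 2 each). Its log2 change was 1.76, and 0.88 without 7KC replicate 1. The 5 other chromosome 5 genes came to 18.6 and 21.4 FPKM without 7KC and 116 and 83.7 FPKM with it. The 6 members with under 5% of their windows in another Gbp gene had a median log2 change of 2.05, the same as that of all 10, and a ratio of summed levels of 4.99. They include Gbp4 and Gbp9, with the larger shares given above at 2 mismatches, and Gbp7, with windows in Gm43802.

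By group means the ends of the order were the same in both groups, with Gbp2 and Gbp3 first and Gbp4 and Gbp9 last. In the control group Gbp2, Gbp3, Gbp7 and Gbp6 were the most abundant, and among these 4 each lay above the next in both libraries. Gbp8, Gbp11, Gbp5, Gbp10, Gbp4 and Gbp9 followed, and from Gbp6 downward neighbours overlapped except for Gbp5 above Gbp10. In the 7KC group the order was Gbp2, Gbp3, Gbp6, Gbp5, Gbp7, Gbp10, Gbp8, Gbp11, Gbp4 and Gbp9. There, only Gbp2 above Gbp3 and Gbp4 above Gbp9 were neighbours whose libraries did not overlap.

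The share of each gene in the summed Gbp level does not depend on how the libraries are scaled to each other. Gbp7 provided 11.1% and 11.6% of the sum without 7KC and 7.69% and 8.02% with it. Gbp5 moved the other way, from 6.55% and 6.29% to 9.45% and 8.30%. The share of Gbp3 was 13.6% and 13.1% without 7KC and 10.3% and 11.7% with it. The make-up of the summed level thus differed between these libraries, with Gbp5 and Gbp10, and by a narrow margin Gbp6, taking larger shares and Gbp3, Gbp7, Gbp8 and Gbp9 smaller ones in both 7KC libraries.

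**Figure D4:**
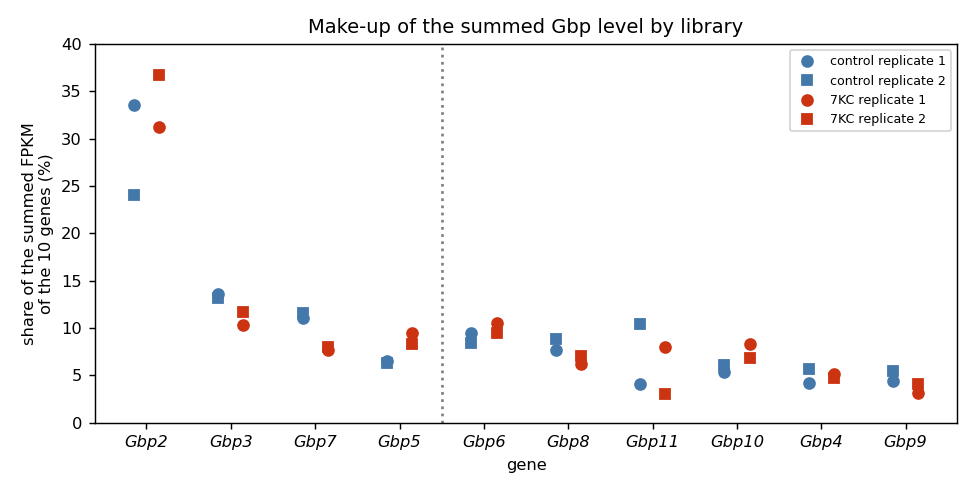
Share of each member, in percent, in the summed FPKM of the 10 genes in each library, with chromosome 3 left of the dotted line. The shares of Gbp7 and Gbp3 lie lower and that of Gbp5 lies higher in both 7KC libraries, while those of Gbp2, Gbp4, Gbp6 and Gbp11 overlap between the groups or nearly touch.

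The differences between libraries of the same group were not used to choose the genes. In all 10 members 7KC replicate 1 lay above 7KC replicate 2, with a median difference of 0.45 on the log2 scale, whereas 52.3% of all tested genes did so and their median difference was 0.01. These values are on the deposited scale, where the summed FPKM was 619828 in 7KC replicate 1 and 557138 in 7KC replicate 2. The smallest member difference was 0.04, in Gbp9. The counts in this paragraph may therefore depend on scaling, which was not examined for them. Of 5 markers carried by all leukocytes, none lay higher in 7KC replicate 1, and their median difference was -0.40. The same was seen in 8 of 9 markers of monocytes and recruited macrophages, with a median difference of -0.67. Of 11 tested T and NK cell markers, 9 were higher in 7KC replicate 1, with a median difference of 0.21, and so were 7 of 9 hepatocyte markers, with a median of 0.35. Resident Kupffer cell markers were lower in 7KC replicate 1 in 5 of 5 (median -0.43), endothelial markers in 7 of 7 (-0.49) and stellate markers in 4 of 5 (-0.35). Of 3 tested markers each, 2 neutrophil markers and 1 B cell marker were higher there (medians 0.06 and -0.14). In the control group 7 of the 10 members were higher in replicate 2, with a median difference of 0.15, while all 5 leukocyte markers were lower there, with a median of -0.55. In that library 10 of the 11 T and NK cell markers were lower too, with a median of -0.38, as were 6 of the 9 hepatocyte markers, with a median of -0.22. Endothelial markers were higher there in 6 of 7 (median 0.29) and resident Kupffer cell markers in 4 of 5 (0.10). Stellate markers were lower in 4 of 5 (-0.25), as were all 3 tested B cell and all 3 tested neutrophil markers. What these differences mean for the Gbp level was not tested.

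Between the groups the leukocyte markers were higher in the 7KC group along with the Gbp genes. The 5 pan-leukocyte markers summed to 131 to 223 FPKM without 7KC and 437 to 485 FPKM with it, with a median log2 change of 1.31. Cd52 alone held 151 and 79.7 FPKM of this sum without 7KC and 314 FPKM in each library with it. In all 5 the libraries did not overlap, with 7KC higher, as in 25.1% of all tested genes. Ptprc, the gene of the leukocyte antigen CD45, was at 8.47 and 5.65 FPKM and at 15.5 and 20.6 FPKM. Markers of monocytes and recruited macrophages summed to 341 to 578 and 1078 to 1714 FPKM. Most of this was Lyz2, at 538 and 321 FPKM without 7KC and 995 and 1583 FPKM with it. In the mean 9 of 9 were higher, 6 of them without overlap, with a median log2 change of 1.59. T and NK cell markers summed to 15.1 to 23.0 and 49.3 to 56.9 FPKM, with 11 of 11 tested genes higher without overlap and a median of 1.26. None of the markers of these 3 lists was called by limma. With the libraries rescaled to an equal sum 3, 2 and 4 of them were. In that setting 398 of 12330 tested genes were called higher and 7 lower.

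Resident Kupffer cell markers summed to 287 to 288 FPKM without 7KC and 335 to 504 FPKM with it, with a median log2 change of 0.65. Of the 5, 3 were higher without overlap, as were 25.1% of all tested genes. Vsig4 was lower without overlap (log2 change -0.41), and in Clec4f the groups overlapped (-0.03). The 7 endothelial markers summed to 92.3 to 112 FPKM without 7KC and 87.8 to 126 FPKM with it, with a median log2 change of -0.02 that was 0.16 after rescaling. The 5 stellate cell markers summed to 23.0 to 34.2 and 37.5 to 51.0 FPKM, but their median log2 change was 0.01 and only the collagen gene Col1a1, at 16.0 and 8.10 FPKM without 7KC and 23.5 and 34.2 FPKM with it, was higher without overlap. The 5 matched neutrophil markers summed to 16.6 to 30.8 and 34.4 to 34.97 FPKM (median log2 change 0.51 over 3 tested), and the 5 B cell markers to 2.26 to 7.03 and 6.47 to 6.63 FPKM (0.39 over 3 tested). The B cell gene Pax5 was listed at 0 in 1 library, and Ly6g was not matched to a listed symbol. All 9 hepatocyte markers were lower in the mean on the deposited scale, with sums of 56205 to 71308 and 37407 to 51342 FPKM and a median log2 change of -0.52, and 8 of 9 were lower when the libraries were rescaled to an equal sum. The part of these shifts in the Gbp levels was not tested.

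Next, the genes around the Gbp proteins were examined in the limma fit over all genes, in 5 lists with 52 tested of 53 genes. Of these 4 were called higher, which is 7.69% of them beside 0.48% of all tested genes, and none was called lower, where the background was 0.0244% (0.504% in either direction). The count depended on which libraries were included, although leaving out a library leaves its group with only 1. Rescaling to an equal summed FPKM gave 16 called genes of the lists, where 398 of 12330 tested genes were called higher and 7 lower.

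The interferon signaling list holds genes of the pathway that induces the Gbp genes, and 2 of its 15 tested genes were called higher. Irf8, a transcription factor of myeloid cells that binds ISRE-like sites, rose from 10.6 and 8.16 FPKM to 26.8 and 26.2 FPKM, or 1.46 ± 0.15 on the log2 scale (estimate and SE, limma adjusted p 0.0369). The interferon-γ receptor chain gene Ifngr2 was next, with 16.1 FPKM in both control libraries and 25.2 and 26.5 FPKM with 7KC, and did not pass (log2 change 0.66, limma adjusted p 0.0621).

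The other genes of this axis are named after their values were seen. Ifng itself was low and measured 0.408 and 0.362 FPKM without 7KC and 2.99 and 1.38 FPKM with it (log2 change 1.53, limma adjusted p 0.104). Socs1, the feedback inhibitor of the pathway, was at 2.54 and 2.07 FPKM and at 18.8 and 7.17 FPKM (2.12, limma adjusted p 0.0985). Irf1, a transcription factor that acts on Gbp promoters, was at 32.6 and 23.1 FPKM and at 72.4 and 52.4 FPKM (1.15, limma adjusted p 0.0965). These 3 did not pass the threshold, and like the Gbp genes they were higher in 7KC replicate 1 than in 7KC replicate 2. The list as a whole was not: 8 of its 15 tested genes were higher in 7KC replicate 1 and 7 were lower, with a median difference of 0.003. The type I interferon receptor gene Ifnar2 (log2 change -0.03) and the kinase gene Jak1 (-0.02) were among the 3 genes of the list with values below 0, a count that was 1 after rescaling to an equal sum. Ifnb1 was listed at 0 in all 4 libraries. In 12 of the 15 genes the groups did not overlap, with 7KC higher, as in 25.1% of all tested genes. After rescaling to an equal sum 5 of the 15 were called, where 398 of 12330 tested genes were called higher and 7 lower.

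The recruitment list holds immunity-related GTPases that guide Gbp proteins to membranes and the ubiquitin and ubiquitin-like conjugation genes that mark those membranes. Of 16 genes 1 was called higher. Igtp, an immunity-related GTPase, rose from 33.2 and 38.8 FPKM to 200.4 and 136 FPKM, or 2.19 ± 0.21 on the log2 scale (estimate and SE, limma adjusted p 0.0327). Gm12250, which RefSeq gives as Irgb10, was at 3.19 and 3.00 FPKM and at 23.0 and 12.8 FPKM (log2 change 2.30, limma adjusted p 0.0512). Irgm1 was at 31.4 and 35.3 FPKM and at 122 and 82.1 FPKM (1.57, limma adjusted p 0.0523). Irgm2 had a log2 change of 1.17 and did not pass. The 12 genes of conjugation and ubiquitin marking ranged from -0.47 (Gabarapl1) to 0.10 (Traf6), with -0.28 for Atg5 and 0.07 for Atg16l1, and none of them passed. On the deposited scale 5 of the 16 genes were higher without overlap, beside 25.1% of all tested genes, and 6 were lower without overlap. The share of all genes lower without overlap was not counted. The median of the list was -0.07 as deposited and 0.13 after rescaling to an equal sum, so no direction can be given for it.

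Of the 5 genes of CaaX prenylation, the reaction that anchors Gbp2 and Gbp5 in membranes, none was called. The 3 with the smallest p were Fnta at -0.21, Rce1 at -0.27 and Pggt1b at -0.24 on the log2 scale (limma adjusted p of 0.366, 0.418 and 0.428). On the deposited scale 1 of the 5 was higher without overlap, beside 25.1% of all tested genes, and 4 were lower without overlap. The median was -0.21 as deposited and -0.01 after rescaling to an equal sum.

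In the inflammasome list, which holds sensors and effectors acting downstream of the Gbp proteins, 1 of 9 genes was called higher. Pycard, the adaptor that links sensor to caspase, measured 2.08 and 1.87 FPKM without 7KC and 5.77 and 5.61 FPKM with it, or 1.32 ± 0.13 on the log2 scale (estimate and SE, limma adjusted p 0.0336). Nlrp3 was at 0.989 and 0.698 FPKM and at 2.57 and 2.76 FPKM, and Aim2, the sensor of cytosolic DNA, at 0.947 and 0.958 FPKM and at 2.46 and 3.06 FPKM (log2 changes 1.24 and 1.16, limma adjusted p 0.0596 for each). In all 9 genes the groups did not overlap, with 7KC higher, as in 25.1% of all tested genes, and the median log2 change was 1.01. After rescaling to an equal sum 6 of the 9 were called, where 398 of 12330 tested genes were called higher and 7 lower.

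Among other large GTPases of the dynamin superfamily none of 7 was called. After Gbp2b, the smallest p belonged to Mx1, an antiviral GTPase (log2 change 1.20, limma adjusted p 0.0966), and Gvin1, a very large interferon-inducible GTPase (0.65, limma adjusted p 0.201). The atlastin genes Atl1, Atl2 and Atl3, whose proteins share the GTPase fold and fuse membranes of the endoplasmic reticulum, had log2 changes of -0.19, -0.23 and -0.12, and 2 of the 7 genes of the list stayed below 0 after rescaling to an equal sum.

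**Figure D5:**
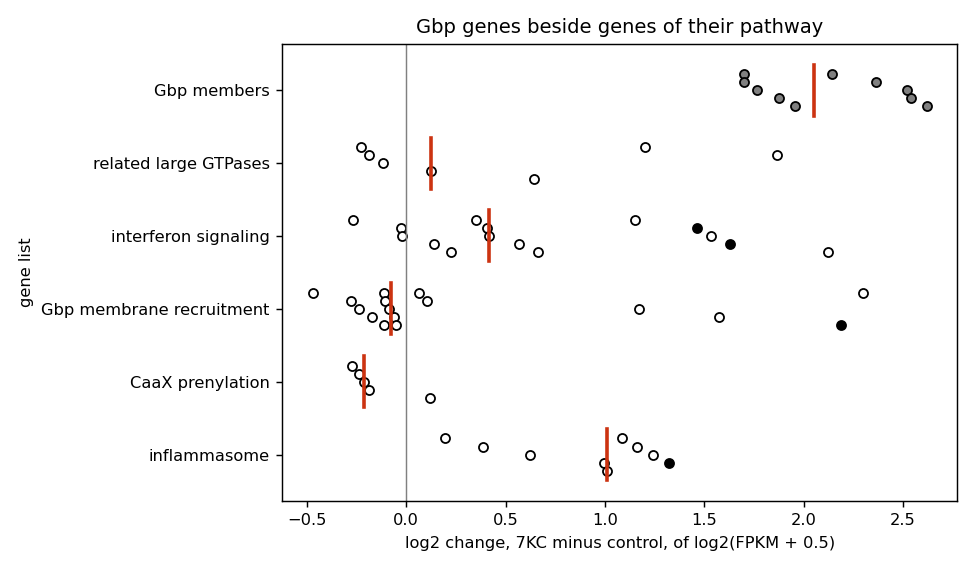
Log2 change of each tested gene on the log2(FPKM + 0.5) scale, 7KC minus control, for the 10 Gbp members (grey, without a test) and 5 lists around them. Filled black points passed limma at an adjusted p under 0.05, open points did not, and red bars are list medians, of which the Gbp members had the highest at 2.05.

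Finally, the genes outside the family whose profile over the 4 libraries was closest to the median profile of the members were sought by the root mean square distance of centred log2 values. They were Igtp (distance 0.0681), Tgtp2 (0.0760), Apol10b (0.0854), Ifi47 (0.128) and Serpina3g (0.131). Igtp, Tgtp2 and Ifi47 are interferon-inducible GTPases of the immunity-related family. Tgtp2 measured 2.16 and 2.68 FPKM without 7KC and 13.4 and 10.3 FPKM with it. Of the members, Gbp4 was the closest to the median profile (0.106) and Gbp11 the farthest (0.610). With 4 libraries in 2 groups such a distance holds the difference between the groups, and it is given as a description.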

How the data were processed

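Liver RNA of 4 samples was examined. Per the labels a stranded mRNA kit was used, and by the study's methods reads were single ends of 75 bases mapped to mm10. FPKM values were deposited by the authors, 1 per gene symbol and library. The submitters' processing notes list TopHat2 2.1.1, Bowtie2 2.2.8, SAMtools 0.1.18 and Cuffdiff 2.2.1, and the methods give other releases of the first 3. The annotation and the handling of multi-mapped reads are not given in the sources used here, so reads may have been exchanged between similar Gbp genes.

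FPKM are not counts. Genes averaging 0.5 FPKM or more were fitted as log2(FPKM + 0.5), which understates changes of low genes, with limma 3.58.1 in R 4.3.3 (group as the only term, prior variance trend, Benjamini-Hochberg over 12299 genes, threshold 0.05). The script was tested on simulated data. An exact permutation test of 2 against 2 libraries cannot give a 2-sided p below 0.333. Depth was estimated from genes with 1 GENCODE M21 transcript, with 200 bases as the fragment length. In each library 69.2% to 71.3% of the values under 10 reads lay no more than 0.1 from a whole number of reads, compared with a median of 13.7% to 14.5% over other depths. Windows and coding identities came from GENCODE M21 transcripts, and identity was counted over aligned bases.

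The members and lists were chosen with earlier results of these data known. Named genes were every member, Gbp2b, the called genes or the 3 with the smallest p of each list, and the 5 nearest profiles. Protein sequences were not used here, and 1 called gene of the lists is not reported here by name.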

Additional observations from a re-analysis of the deposited data

How the results depend on the processing

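All 10 Gbp genes kept a log2 change above 0 under every alternative. Because the groups did not overlap in any of them, only a rescaling of the libraries could have reversed that sign. Nothing is therefore read from it. The median of the members was 2.05 in the reported fit. It lay between 1.86 and 2.52 when a library was left out, and was 2.15 and 1.95 with pseudocounts of 0.1 and 1 FPKM. Rescaling to the same sum moved the median of all genes from -0.03 to 0.16 and that of the members to 2.24. Relative to all genes the members stayed at 2.08, as a rescaling shifts nearly all genes alike. Of 90 values of single members under the alternatives, 4 moved by more than the spread between libraries, all on rescaling to the same sum and all upward. The spread was each gene's own, so a gene with a wide spread could shift far and count as unmoved. Gbp11 did so, with 0.88 without 7KC replicate 1 and 2.64 without 7KC replicate 2. The 90 include the replicate block, which cannot change them.

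Counts of calls moved far more. Against 59 genes higher, 3 lower and 4 called pathway genes, 111 were higher when 1 FPKM was added in place of 0.5. With low values left in, 0 were higher, 1 was lower and 0 pathway genes were called in limma, with 2634 genes at an unadjusted p under 0.05. Rescaling to the same sum gave 398, 7 and 16. Without a prior variance trend the counts were 39, 1 and 2. Leaving out a library gave 2 to 404 higher, 1 to 54 lower and 0 to 11 pathway genes, with limma assuming that a lone library varies like the other group. The cause was not tested.

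The replicate numbers are not known to pair samples: the deviations of same-numbered libraries from their group means correlated at -0.14. With the replicate block 0 genes were higher, 0 lower and 0 pathway genes were called in limma (1851 at an unadjusted p under 0.05). The median of the members stayed at 2.05, as a balanced block cannot change it. With the numbers crossed, a setting added after seeing the data, the counts were 551, 37 and 14. With 2 libraries per group the precision is limited by their number.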
